A study of Mus musculus with 3 samples.

Results

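Interferon-stimulated genes are the genes that a cell switches on when interferons bind its surface receptors. A set of 42 such genes, given by name, was followed in sorted mouse CD8+ T cells: interferon-responsive transcription factors, sensors of foreign nucleic acid, antiviral effectors, the ISG15 modification system, interferon-inducible GTPases, the peptide transporter of antigen presentation and others. A gene was read from the probe sets of an Affymetrix mouse 430 2.0 array that the platform annotation assigns to that symbol alone, and the brightest of them, by its mean of the 3 arrays, stood for the gene. Of the 42, 40 had such a probe set, among 18193 genes in all. The exceptions were Ifi44 and Isg15, and Isg15 was named there only together with another gene.

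The study asked what underlies the harmful behaviour of NK1.1+ T cells without the TGF-β receptor chain Tgfbr2. Receptor-deficient mice were Tgfbr2fl/fl x CD4-Cre (KO), 15 to 17 days old, and their CD8+ T cells were sorted by flow cytometry for presence (NK1.1+) or absence (NK1.1-) of a surface receptor typical of natural killer cells. Control cells came from littermates heterozygous for the floxed allele (Tgfbr2fl/wt x CD4-Cre), so all 3 groups carry the Cre transgene and at least 1 floxed allele. The control cells are called NK1.1- in one place of the labels and unfractionated CD8+ in another, so their gate is not settled. Cre under the Cd4 promoter acts from the stage at which thymocytes carry both CD4 and CD8, so it reaches CD8+ cells too. How many mice stand behind an array is not stated in the sources at hand, and each group has 1 array, so no difference below has replicates or a test behind it.

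As background, type I interferons signal through the receptor chains IFNAR1 and IFNAR2 and the kinases JAK1 and TYK2, and a complex of STAT proteins with IRF9 then binds the interferon-stimulated response element (ISRE) in promoters. Interferon γ, which activated CD8+ T cells and natural killer cells make themselves, signals through a separate receptor to the gamma-activated sequence (GAS) and induces IRF1, guanylate-binding proteins and antigen presentation genes most strongly. Many of these genes respond to both kinds of interferon.

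The promoters of some of the genes show these elements. RefSeq promoter windows of assembly GRCm38.p6, from 250 bases before to 50 after the start site, were given for 32 of the 42 genes. The core of the ISRE, searched as GAAA, any 2 bases and GAAA again, stood on either strand in a window of 16 of these 32 genes, against 1079 of all 27025 genes of the table (3.99%). The letters TTCNNNGAA, the GAS consensus, which reads the same on both strands, stood in a window of 10 of 32 (31.2%) against 9.55% of all genes. A match describes letters and shows no binding. Isg20, Samhd1 and Eif2ak2, each called in a comparison, had matches that are not shown. The stretches below are a selection from the genes with a match. They run 5′ to 3′ in the direction of the gene, and capitals mark every match of the named element within the stretch, which reads TTTC, 2 bases and TTTC where the ISRE core lies on the other strand and merges into a longer run where matches overlap.
Ifit1, ISRE core, chr19:34640765-34640833, plus strand: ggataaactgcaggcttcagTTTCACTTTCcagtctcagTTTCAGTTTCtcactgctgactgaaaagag
Ifit3, ISRE core, chr19:34583353-34583436, plus strand: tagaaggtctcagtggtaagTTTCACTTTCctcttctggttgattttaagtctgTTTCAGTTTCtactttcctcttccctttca
Rsad2, ISRE core, chr12:26456543-26456592, minus strand: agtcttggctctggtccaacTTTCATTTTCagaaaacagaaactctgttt
Bst2, ISRE core, chr8:71537567-71537622, minus strand: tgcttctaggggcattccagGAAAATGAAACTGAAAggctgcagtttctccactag
Oas3, ISRE core, chr5:120777705-120777754, minus strand: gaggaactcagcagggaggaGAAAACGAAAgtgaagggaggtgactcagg
Gbp2, ISRE core, chr3:142620584-142620633, plus strand: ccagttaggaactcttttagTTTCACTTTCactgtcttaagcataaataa
Gbp3, ISRE core, chr3:142559979-142560034, plus strand: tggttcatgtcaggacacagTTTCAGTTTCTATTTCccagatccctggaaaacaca
Gbp7, GAS, chr3:142530210-142530277, plus strand: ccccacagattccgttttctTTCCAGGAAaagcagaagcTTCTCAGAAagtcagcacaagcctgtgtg
Irf1, GAS, chr11:53769904-53769952, plus strand: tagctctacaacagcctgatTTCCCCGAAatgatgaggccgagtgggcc
Ifit1 and Ifit3 each hold 2 separate ISRE cores, and Gbp3 and Bst2 each hold 2 that overlap. Not marked above, Gbp7 also had an ISRE core and Bst2 also a GAS match, so the element named for a stretch need not be the only one. Of the genes with a window, Irf7, Isg20 and Tap1 had no ISRE core in it, and Isg20 had a GAS match.

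Values are probe set intensities on a linear scale. A value of 9.57 or more was counted as measured, a level set by receptor and lens genes that T cells do not use, and lower values were raised to it before log2 differences were taken. Where the dimmer array lay under that level, the fold is the smallest it can be, hence "at least". Calls of higher or lower were made at a log2 difference of 1 or more in size, which is 2-fold. Of the 40 genes, 38 were measured on at least 1 array and 34 on all 3, and Mx2 and Oasl1 were measured on none. Levels of different genes are not compared, since each probe set has its own brightness.

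The arrays differ in ways that touch every value of the NK1.1+ KO array. For Actb the 3′ probe set outshone the 5′ one 81.9-fold there, against 12.3-fold (NK1.1- KO) and 6.02-fold (control). For Gapdh this ratio went the other way and was lowest there, at 10.8, against 26.7 (NK1.1- KO) and 17.8 (control). Actb and Gapdh thus give no common order of 3′ bias. Hybridisation controls were brighter on the NK1.1+ KO array (3707 against 1483 and 1479). Probe sets of the same gene, the one spread these files hold, varied in their log2 difference with a pooled SD of 0.42 where NK1.1- cells were set against control, 0.85 where NK1.1+ cells were, and 0.76 between the KO arrays. The targeted Tgfbr2 read 2634 in control, 1271 in NK1.1- KO and 1808 in NK1.1+ KO cells, but whether its probe set lies in the deleted part is unknown here, so it may check nothing. Of 18 listed genes of monocytes, macrophages and granulocytes, 13 reached the level in NK1.1+ cells, with a summed intensity of 25337, against 1033 for NK1.1- KO and 653 for control cells. Of the 18, Cd14, Itgam, C1qa, Mpo and Elane were below the level on every array, while Csf1r read 7666, 54.5 and 30.5. Sums of B and plasma cell genes (13369, 1274 and 2304) and of conventional dendritic cell genes (1986, 631 and 562) were also highest on the NK1.1+ KO array, with Cd79a, Pax5, Flt3 and Xcr1 below the level on all. The B and plasma cell sum rested mainly on Ighm (10744, 771 and 1904) and Jchain (2282, 16.0 and 15.9). Of 7 measured genes of that list, 4 were below control there. The list's median log2 difference was -0.06, with 3 genes called higher and Cd79b called lower. All 5 measured dendritic cell genes were above control there, but Itgax was brightest on the NK1.1- KO array (104, 187 and 9.88). Of 7 T cell identity genes, 6 were called lower on the NK1.1+ KO than on the control array, with sums of 3896, 7883 and 10898 from NK1.1+ KO to control. In sorted bulk RNA, fewer cells of a type and less RNA per cell cannot be told apart, and the part of these differences in the results below was not tested.

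Receptor-deficient NK1.1- cells differed little from control cells in this gene set as a whole. Of 38 genes measured on either array, 3 were called higher (7.89%, with 8.04% of all 10089 genes called higher) and 1 lower (2.63%, with 5.54% of all genes called lower). The median log2 difference was 0.03, beside 0.01 for all genes, and 20 genes were above and 18 below 0 (51.8% and 48.2% of all genes). The shares called are close to or below those of all genes, so they set the group apart in neither direction. The called genes were Gbp3, Mx1 and Oas3 on the higher side and Oas2 on the lower.

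Receptor-deficient NK1.1+ cells read lower than control cells for many of the genes. Of 38 genes, 14 were called lower (36.8%, with 22.8% of all 10668 genes called lower) and 3 higher (7.89%, with 9.83% of all genes called higher). The median log2 difference was -0.62, beside -0.17 for all genes, which is -0.45 relative to the shift of the whole array (-0.14 with a higher level, at the 75th percentile of values, and -0.21 with the mean of a gene's probe sets), and 28 genes were below 0 (73.7%, with 57.6% of all genes below and 42.4% above 0). All 14 were still below 0 when the arrays were rescaled in any of the 3 ways tried. For a common median and for hybridisation controls this was fixed in advance, since both multiply whole arrays. The median factors, 1.26 for NK1.1+ KO and 0.92 for control, are too small to bring a 2-fold difference to 0. The hybridisation controls lower the NK1.1+ KO array further. Scaling to the hybridisation controls put all 38 genes below control, so the genes of the set given below as higher in NK1.1+ cells than in control, Eif2ak2, Gbp3 and Mx1 included, are higher only without that scaling. For Eif2ak2 it also made another probe set the brighter one, and on the probe set used here the log2 difference became -0.039 from control and 0.86 from NK1.1- KO. Ifit3 and Rsad2 fell short of 2-fold after quantile normalization and with a common median, and Oas2, Samhd1 and Tap1 with a common median. Ifit1, Isg20, Bst2, Usp18, Tap2 and Parp9 were at least 2-fold lower under every alternative level, offset, scaling or choice of probe sets that gave a value. An offset of 32 in place of the level ended the calls of Mx1, Oas2 and Oas3 in both KO fractions and of Dhx58 and Eif2ak2 in NK1.1+ cells, a higher level those of Irf7 and Dhx58 in NK1.1+ cells and of Oas3 in NK1.1- cells, and the mean of a gene's probe sets those of Dhx58, Rsad2, Samhd1, Tap1 and Eif2ak2 in NK1.1+ cells. Other gene lists were also low on this array, with a median of -1.70 for the T cell identity genes and of -0.94 for 10 housekeeping genes, 5 of them called lower, and their part in the result was not tested. Over all genes, 30.1% of calls were on the higher side, and this share was 40.7% after quantile normalization, 54.9% with arrays scaled to a common median and 4.37% with arrays scaled to hybridisation controls. Between the KO arrays, 11 of 37 genes were called lower in NK1.1+ cells (29.7%, with 21.2% of all genes called lower) and 1 higher (2.70%, with 6.53% of all genes called higher), with a median of -0.59 beside -0.24 and 28 genes below 0 (61.6% of all genes below and 38.4% above 0). With the level at the 75th percentile that median was -0.38 beside -0.32, and 21.9% of the genes were called lower against 18.5% of all genes, so most of the gap between the set and all genes was gone. There, 23.5% of all calls were on the higher side, and 36.2%, 57.3% and 2.67% after the same rescalings. The comparisons share arrays and are not separate evidence of one another.

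**Figure D1:**
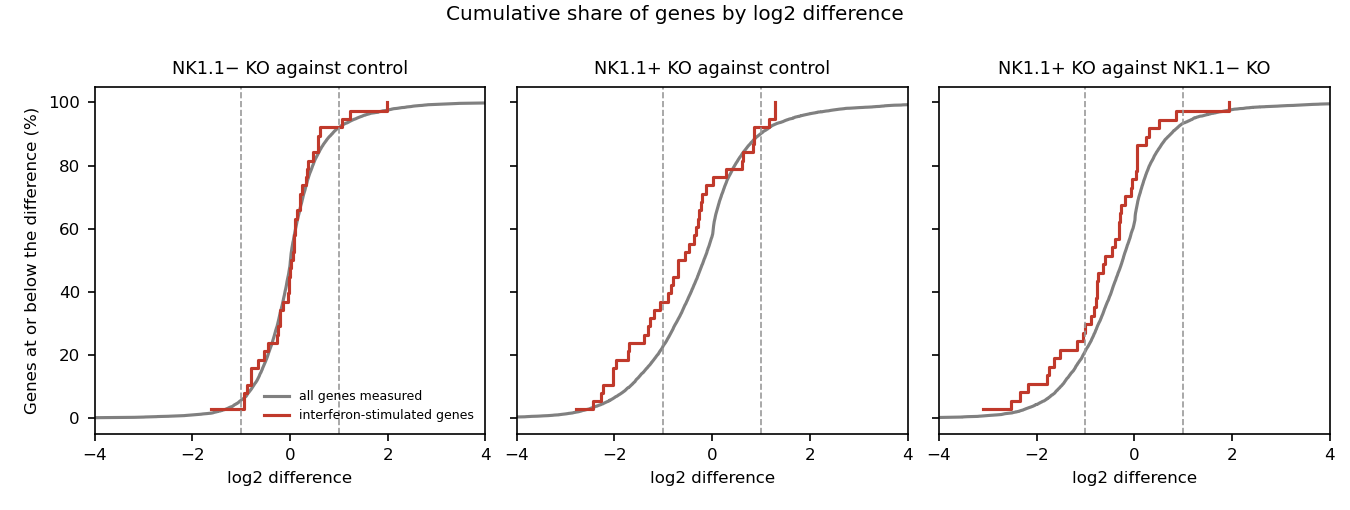
Cumulative share of genes (vertical axis, percent) at or below each log2 difference (horizontal axis) in 3 comparisons of single arrays, for all genes measured (grey) and the interferon-stimulated genes (red), with dashed lines at 2-fold. The red curve follows the grey one for NK1.1− KO against control (medians 0.03 and 0.01) and lies to its left over most of its range for NK1.1+ KO against control (medians -0.62 and -0.17).

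**Figure D2:**
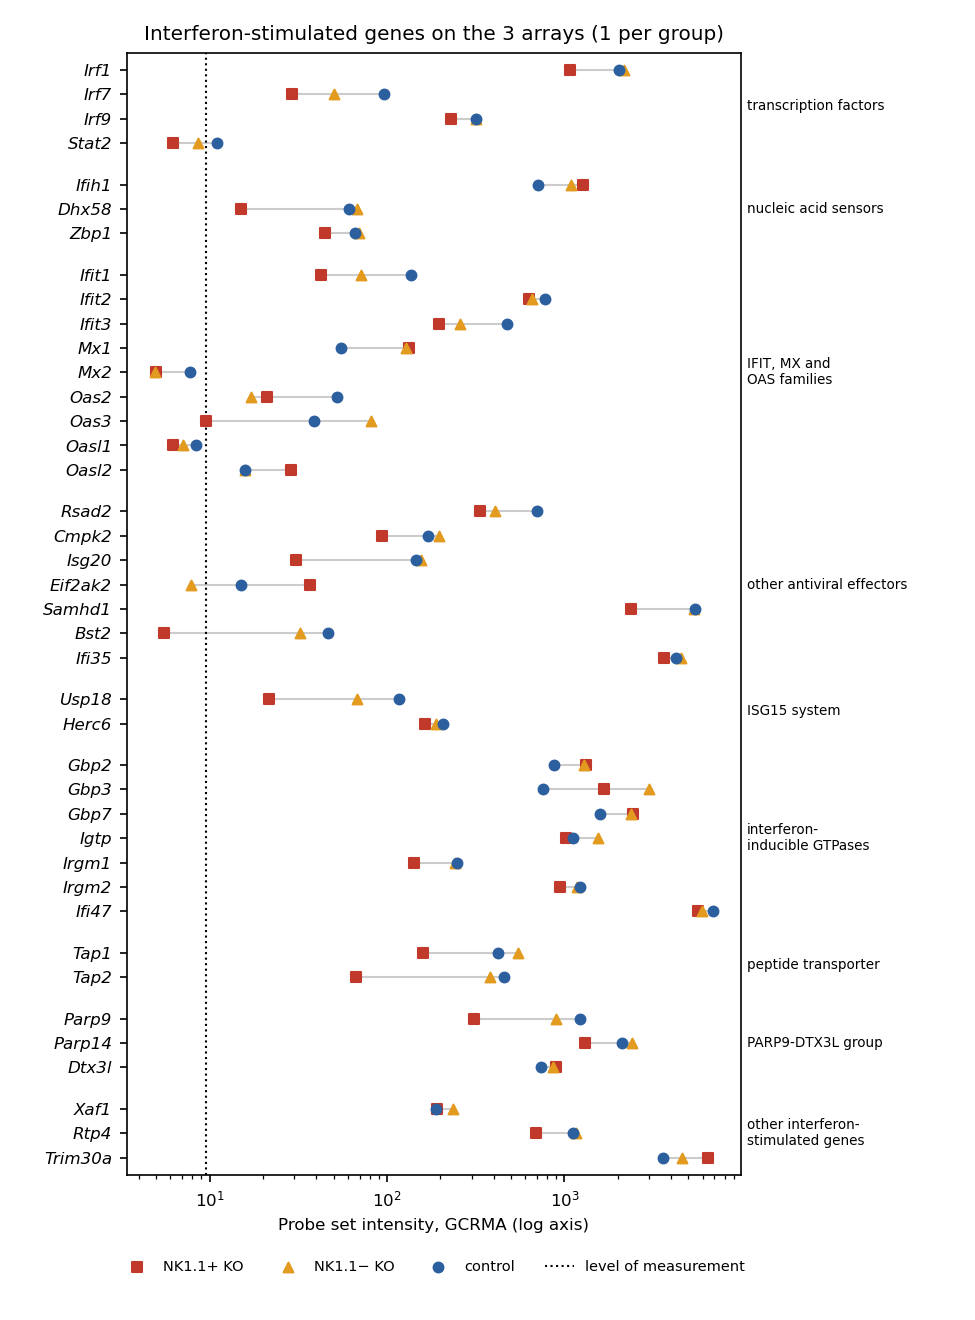
Intensity of each gene (horizontal log axis) on the NK1.1+ KO (red squares), NK1.1− KO (orange triangles) and control (blue circles) arrays, grouped by role, with a dotted line at the level of measurement of 9.57. Irf7, Ifit1, Ifit3, Rsad2 and Usp18 step down from control through NK1.1− KO to NK1.1+ KO, as do 31.2% of all genes measured on all arrays. Gbp2, Gbp3 and Gbp7 are lowest in control cells (on values as deposited, not with arrays scaled to hybridisation controls).

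Among the transcription factors, Irf7, the amplifier of type I interferon responses, read 96.5 in control, 50.3 in NK1.1- KO and 29.1 in NK1.1+ KO cells. It stepped down from one array to the next, 1.92-fold below control in NK1.1- cells, just under the call, and 3.32-fold below in NK1.1+ cells. Such a step down was also seen for 31.2% of all genes measured on all 3 arrays. Irf1, the main mediator of interferon γ responses, read 2019.6, 2167 and 1074 in the same order. The first 2 arrays thus differed by 1.07-fold, and NK1.1+ cells were 2.02-fold below NK1.1- cells, a call lost with the offset, after quantile normalization and with a common median. Irf9, the DNA-binding partner of the STATs, read 319, 317 and 231, with no call in any comparison. Stat2, its partner in the type I response, reached the level in control cells alone, at 11.0.

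The sensors did not read alike. Dhx58, which encodes the RIG-I-like receptor LGP2, read 61.4 in control, 67.5 in NK1.1- KO and 15.0 in NK1.1+ KO cells, 4.10-fold below control in the last. Ifih1, which encodes the RNA sensor MDA5, had its lowest value in control cells, at 712 against 1085 in NK1.1- KO and 1274 in NK1.1+ KO cells. Its differences of 1.52-fold and 1.79-fold were under the call. Zbp1, a sensor of Z-form nucleic acid that can start cell death, read 65.8, 69.9 and 44.8, within 1.56-fold, and its second probe set gave 0.55 on the log2 scale for NK1.1+ KO against control where the first gave -0.55.

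The IFIT genes encode proteins that bind foreign RNA and block its translation, and 3 were read. Ifit1 read 137 in control, 71.3 in NK1.1- KO and 42.2 in NK1.1+ KO cells. Ifit3 read 477, 259 and 198. Both thus followed the order seen for Irf7 and for 31.2% of all genes measured on all 3 arrays. Their log2 differences from control were -0.94 and -0.88 in NK1.1- cells, under the call, and -1.70 and -1.27 in NK1.1+ cells. Ifit2, the neighbour of Ifit3 on the chromosome, read 772, 653 and 629, all within 1.23-fold. Mx1, a GTPase that traps viral nucleoproteins, had the opposite order and read 54.7 in control, 128 in NK1.1- KO and 134 in NK1.1+ KO cells, 2.34-fold and 2.44-fold above control.

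The OAS genes encode enzymes that make a nucleotide signal for RNA decay, and the neighbours Oas2 and Oas3 disagreed. Oas2 read 52.1 in control, 17.0 in NK1.1- KO and 21.1 in NK1.1+ KO cells, 3.06-fold and 2.47-fold below control. Oas3 read 38.9, 81.4 and 9.57, the last just under the level, which is 2.09-fold above control in NK1.1- cells and at least 4.07-fold below it in NK1.1+ cells. In NK1.1- cells one neighbour was thus called lower and the other higher. Oasl2, an OAS-like gene, read 15.8, 15.9 and 28.7, with no call.

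Of 7 other antiviral effectors, none was called in NK1.1- cells, and in NK1.1+ cells 4 were called lower than control and 1 higher (22.8% and 9.83% of all genes). Rsad2, which encodes viperin, an enzyme that makes a chain-terminating nucleotide, read 700.0 in control, 404 in NK1.1- KO and 333.5 in NK1.1+ KO cells (2.10-fold below control in the last), and its dimmer measured probe set gave -0.42 on the log2 scale for that comparison. Its neighbour Cmpk2, a nucleotide kinase that supplies viperin's substrate, read 170, 196 and 94.1, so its highest value was not in control cells, and its call between the KO arrays (2.08-fold) was lost under the same settings as that of Irf1 and with the mean of probe sets. Isg20, an exonuclease, read 145, 156 and 30.8, 4.70-fold below control in NK1.1+ cells. Bst2, which encodes tetherin, a protein that holds budding virus at the membrane, read 46.5 in control and 32.3 in NK1.1- KO cells. It was below the level on the NK1.1+ KO array, which makes it at least 4.86-fold lower than in control. Bst2 is also a marker of plasmacytoid dendritic cells. Of 7 listed markers of these cells with a value, Siglech, Il3ra and Cox6a2 were below the level on all arrays. The others had no common direction. From control through NK1.1- KO to NK1.1+ KO, Tcf4 read 10.3, 10.3 and 65.1, Ccr9 293, 36.9 and 14.9, and Klk1 37.0, 36.9 and 24.1.

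Samhd1, which depletes nucleotides needed by viruses, read 5449.9 in control, 5397 in NK1.1- KO and 2377 in NK1.1+ KO cells by its brightest probe set. The 4 dimmer Samhd1 probe sets gave log2 differences from -0.33 to 0.32 for NK1.1+ KO against control, against -1.20 by the brightest, so they do not share the 2-fold difference. Eif2ak2, which encodes the RNA-dependent kinase PKR, read 15.1, 7.82 and 36.8, 2.44-fold above control in NK1.1+ cells. A second Eif2ak2 probe set gave -0.74 on the log2 scale for the same comparison, so the direction depends on the probe set. Ifi35, an interferon-induced leucine zipper protein gene, read 4275, 4542 and 3632, within 1.25-fold, by its brightest probe set, while another Ifi35 probe set gave -2.31 for NK1.1+ KO against control.

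The ISG15 system attaches a ubiquitin-like protein to others. Usp18, which removes it and also blocks the type I receptor, read 117 in control, 67.5 in NK1.1- KO and 21.7 in NK1.1+ KO cells. It was 5.41-fold below control in NK1.1+ cells and 1.74-fold below in NK1.1- cells. This is the order of Irf7 and Ifit1, and of 31.2% of all genes measured on all arrays. Herc6, the main ISG15 ligase of the mouse, read 207, 188 and 164, all within 1.26-fold, although a dimmer Herc6 probe set gave -2.51 and -2.55 for NK1.1- KO and NK1.1+ KO against control.

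The interferon-inducible GTPases, which act on membranes around intracellular pathogens, included no gene called lower than control in either KO fraction, except that Igtp, Irgm1, Irgm2 and Ifi47 were called lower in NK1.1+ cells with arrays scaled to the hybridisation controls. Gbp3 was the gene with the largest difference on the higher side in NK1.1- cells, at 753 in control, 2982 in NK1.1- KO and 1676 in NK1.1+ KO cells. It was 3.96-fold above control in NK1.1- and 2.23-fold in NK1.1+ cells. Gbp2 read 871, 1291 and 1323, and Gbp7 read 1580.0, 2361 and 2438. Both thus had their lowest value in control cells, by 1.48-fold to 1.54-fold, under the call. A second Gbp2 probe set gave 0.21 for NK1.1- KO and -0.55 for NK1.1+ KO against control, and a second Gbp7 probe set gave 0.28 and 0.44. Ifi47 read 6880.2, 5936 and 5686. The immunity-related GTPases Igtp, Irgm1, Irgm2 and Ifi47 had log2 differences between -0.21 and 0.47 in NK1.1- cells and between -0.80 and -0.12 in NK1.1+ cells, with no call.

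Tap1 and Tap2 encode the transporter that loads peptides for MHC class I. Tap1 read 421 in control, 546 in NK1.1- KO and 159 in NK1.1+ KO cells, and Tap2 read 459, 383 and 66.9. The NK1.1+ KO array was the low one for both, 2.65-fold and 6.85-fold below control. A second Tap1 probe set, measured on the NK1.1+ KO array only, went the other way, at 0.36 on the log2 scale. The immunoproteasome genes Psmb9 and Psmb8 were chosen as neighbours after their values were seen. In the gene table Psmb9 lies beside Tap1, and Psmb8 lies between Tap1 and Tap2. Psmb9 and Psmb8 read 766, 974 and 214, and 966, 1035 and 327. They were 3.58-fold and 2.95-fold below control in NK1.1+ cells and within 1.27-fold of control in NK1.1- cells.

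Parp9, Dtx3l and Parp14, also neighbours, encode partners in ADP-ribosylation and ubiquitination that support interferon signalling. Parp9 read 1222 in control, 892 in NK1.1- KO and 311 in NK1.1+ KO cells, 3.93-fold below control in the last. Dtx3l, its binding partner, read 733, 866 and 895, within 1.22-fold. Its second probe set gave 0.87 on the log2 scale for NK1.1+ KO against control, so neither Dtx3l probe set shared the low value of Parp9. Parp14 read 2101, 2410.0 and 1298, with no call.

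Of the remaining genes, Trim30a, a TRIM family regulator, read 3581, 4573 and 6466 from control to NK1.1+ KO, under the call, and its second probe set went the other way (-0.53 for NK1.1+ KO against control). Xaf1, linked to cell death, read 189, 236 and 192, and Rtp4, a chaperone of receptors, read 1122, 1163 and 696, both without a call.

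**Figure D3:**
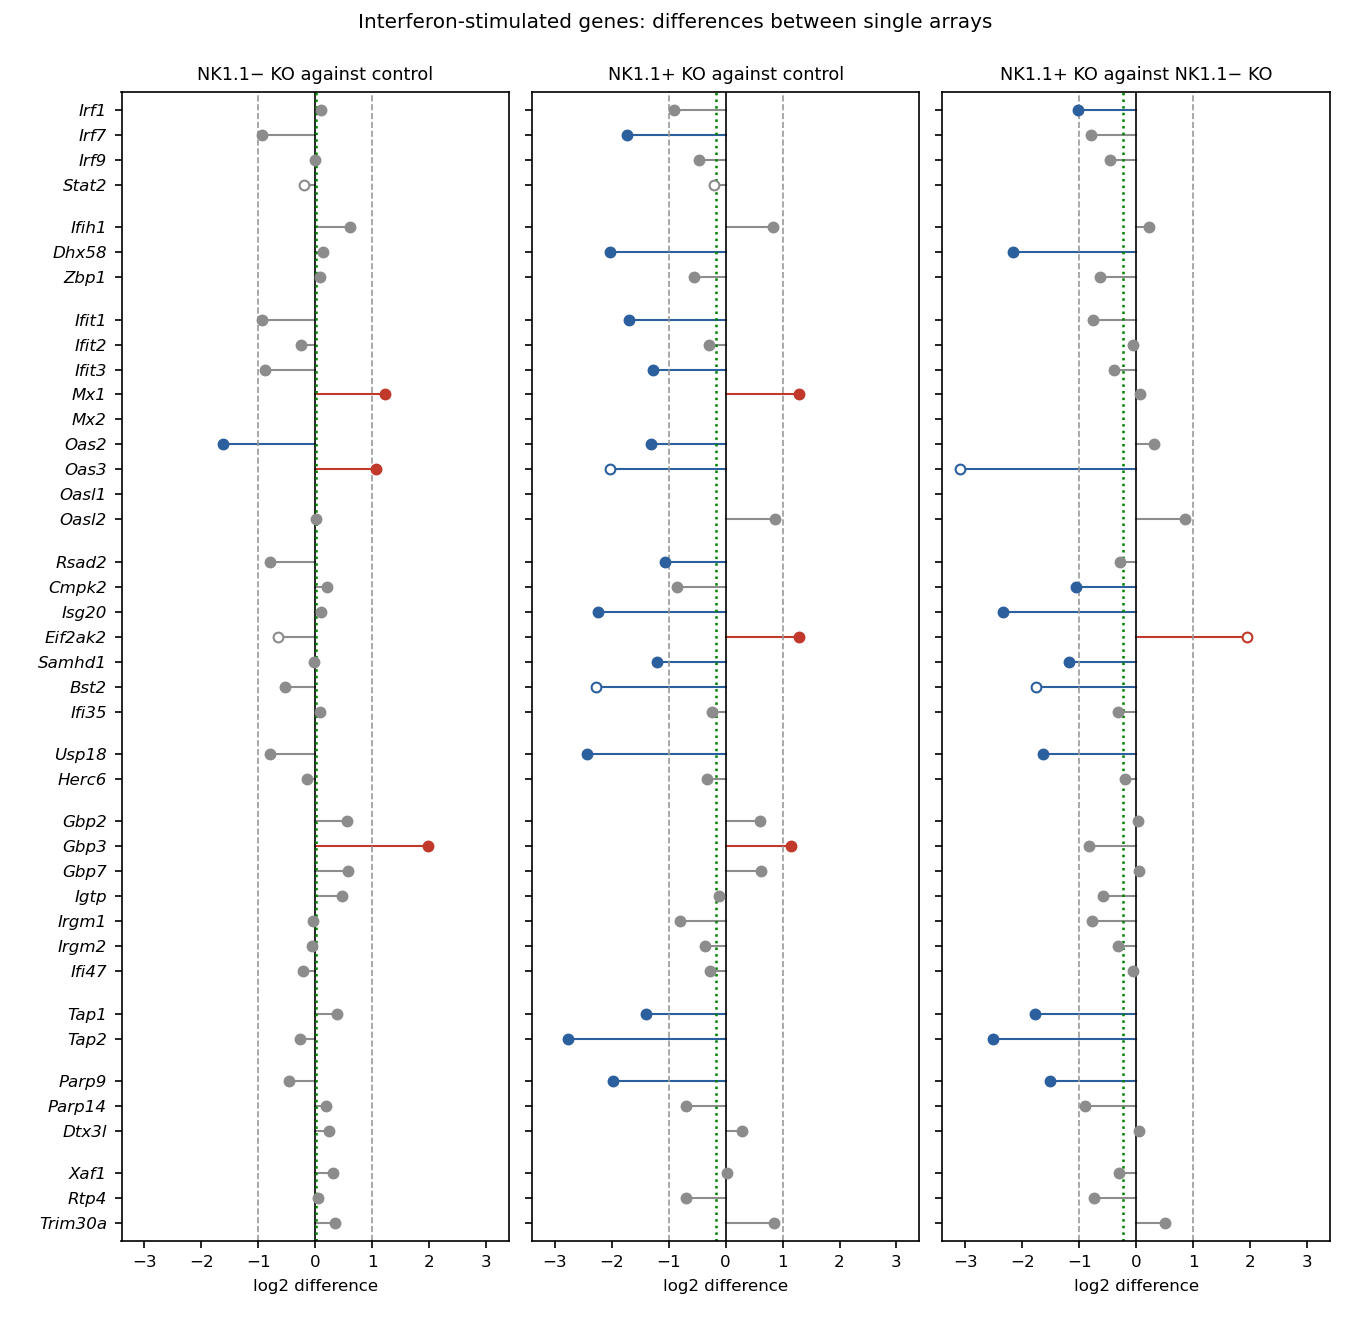
Log2 difference of each gene (horizontal axis) in the 3 comparisons, with dashed lines at 2-fold, a green dotted line at the median of all genes, red for called higher, blue for called lower, grey for neither, and open circles for lower bounds. Genes without a point were below the level on both arrays. Most blue points stand in the panels with the NK1.1+ KO array (14 and 11 genes, against 1 for NK1.1− KO against control). Of all genes, 22.8%, 21.2% and 5.54% were called lower in these 3 comparisons, in that order.

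Over the 34 genes measured on all arrays, 14 had the order control above NK1.1- KO above NK1.1+ KO (41.2%, with 31.2% of all 8918 such genes). They were Irf7, Irf9, Ifit1, Ifit2, Ifit3, Rsad2, Samhd1, Usp18, Herc6, Irgm1, Irgm2, Ifi47, Tap2 and Parp9. The reverse order, lowest in control and highest in NK1.1+ KO cells, held for Ifih1, Mx1, Oasl2, Gbp2, Gbp7, Dtx3l and Trim30a (20.6%, with 16.4% of all genes). Of the 34, 10 were highest in NK1.1- and lowest in NK1.1+ KO cells, among them Irf1, Dhx58, Isg20 and Tap1 (29.4%, with 23.3% of all genes).

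The genes nearest to the 2-fold threshold for NK1.1- KO against control were Oas3 just inside it (1.06) and Ifih1 just outside (0.61) on the higher side, and Oas2 inside (-1.61) and Ifit1 outside (-0.94) on the lower side. For NK1.1+ KO against control they were Gbp3 (1.15) and Oasl2 (0.87), and Rsad2 (-1.07) and Irf1 (-0.91).

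Only 14 of the 40 genes had 2 or more measured probe sets, and 23 had a single probe set. For 7 of these 14, probe sets lay on both sides of 0 for NK1.1+ KO against control, so the direction of those genes depends on the probe set.

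**Figure D4:**
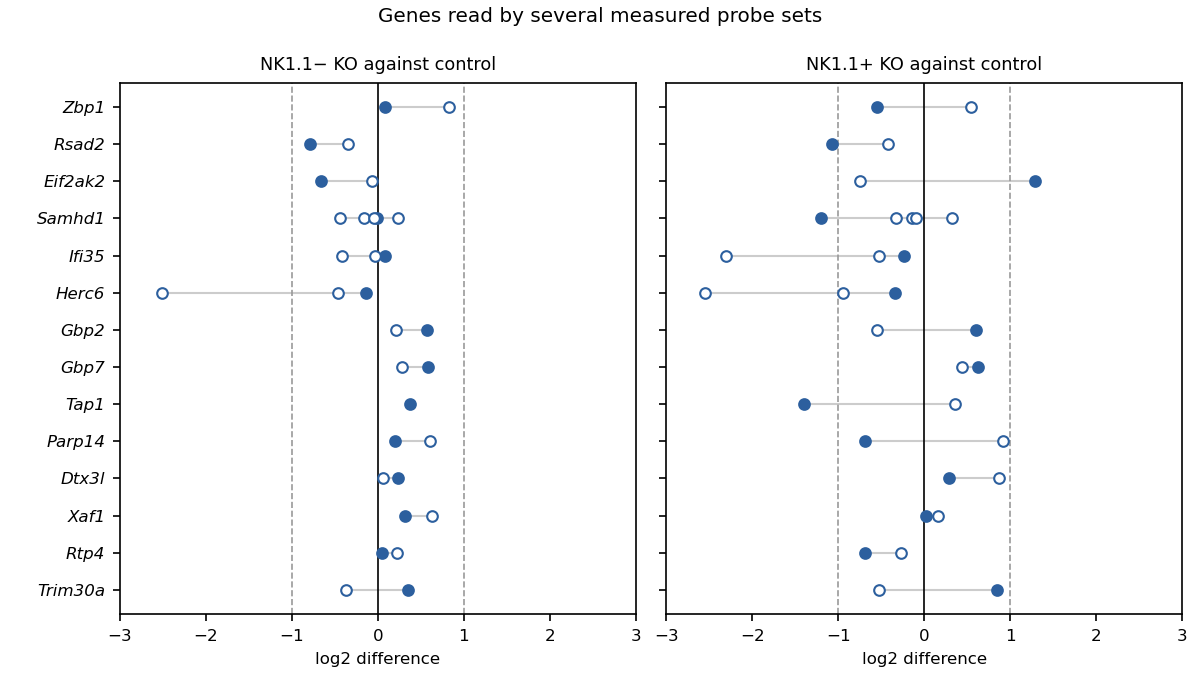
Log2 difference from control (horizontal axis) of every measured probe set of the 14 genes with 2 or more, filled for the probe set that stands for the gene and open for the others, with dashed lines at 2-fold. On the right, the probe sets of Zbp1, Eif2ak2, Samhd1, Gbp2, Tap1, Parp14 and Trim30a lie on both sides of 0 for NK1.1+ KO against control.

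Among the interferon genes themselves, 9 ligands had a value and 2 were measured. Ifng, which encodes interferon γ, read 159 in control, 3874 in NK1.1- KO and 2997 in NK1.1+ KO cells, 24.3-fold and 18.8-fold above control. Ifnz, a type I interferon gene, was near the level at 12.1, 9.93 and 9.16 from NK1.1+ KO to control. Ifnb1 and the 6 interferon α genes with a value were below the level on every array. RNA of interferon β and of these interferon α genes was thus not detectable at this level, while Ifng was high on both KO arrays.

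Of 7 measured receptor and Janus kinase genes, 1 was called lower in each KO fraction and 0 higher, where 5.54% of all genes were called lower in NK1.1- and 22.8% in NK1.1+ cells. That gene, Ifnar1, encodes a chain of the type I receptor and read 157 in control, 77.4 in NK1.1- KO and 48.3 in NK1.1+ KO cells, 2.02-fold and 3.25-fold below control. Ifnar2, the other chain, read 145, 236 and 210.1, so it was highest in NK1.1- KO cells. Ifngr1, a chain of the interferon γ receptor, read 274, 271 and 199, with no call. The 2 chains of the type I receptor thus lay on opposite sides of control in both KO fractions, Ifnar2 by less than 2-fold, except that Ifnar2 was also below control (-0.79) in NK1.1+ cells with arrays scaled to the hybridisation controls.

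Of 10 other measured STAT and IRF genes, 2 were called higher in NK1.1- cells and 0 lower, and 2 higher and 4 lower in NK1.1+ cells. Over all genes, 8.04% were higher and 5.54% lower in NK1.1- cells, and 9.83% and 22.8% in NK1.1+ cells. Irf8, a factor of effector T cells and of myeloid cells, read 89.5 in control, 228 in NK1.1- KO and 198 in NK1.1+ KO cells. Stat5b, which transmits interleukin-2 signals, read 681, 368 and 207, Stat3 read 501, 375 and 158, and Irf3 read 251, 198 and 98.0. These 3 stepped down in the order of Irf7, as did 31.2% of all genes measured on all arrays. Irf2 read 89.5, 170 and 195. Scaling to the hybridisation controls multiplies the NK1.1+ KO array by 0.5996 and the control array by 1.503, which puts Irf2, Irf8 and Mavs below control in NK1.1+ cells (-0.20, -0.18 and -0.29).

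Of 11 measured brakes on interferon signalling, 1 was called higher and 1 lower in NK1.1- cells, and 0 higher and 2 lower in NK1.1+ cells (18.2% lower, under the 22.8% of all genes). Ptpn6, which encodes the phosphatase SHP-1, read 675, 291 and 158, 2.32-fold and 4.28-fold below control. Pias3 read 17.6, 40.1 and 16.5, and Pias1 385, 303 and 168. Socs1, a feedback inhibitor of Janus kinases, was below the level on all arrays.

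Of 14 measured genes that lead to type I interferon production, 1 was called lower in NK1.1- cells and 0 higher, and 2 higher and 1 lower in NK1.1+ cells (14.3% and 7.14%, beside 9.83% and 22.8% of all genes). Ikbke, a kinase that activates IRF3 and IRF7, read 744 in control, 309 in NK1.1- KO and 114 in NK1.1+ KO cells, 2.41-fold and 6.54-fold below control. It also had the order of Irf7, which 31.2% of all genes measured on all arrays had. Ifi204, a sensor gene of the interferon-inducible p200 family, read 11.2, 12.02 and 39.3, and Mavs, the adaptor of RIG-I-like receptors, read 119, 206 and 245.

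A wider list of genes induced by interferons, outside the 42, also held genes called in both directions. In NK1.1- cells 7 of 62 were called higher and 5 lower (11.3% and 8.06%, beside 8.04% and 5.54% of all genes). In NK1.1+ cells 8 of 63 were called higher and 21 lower (12.7% and 33.3%, beside 9.83% and 22.8%). The medians of this wider list were 0.05 in NK1.1- and -0.22 in NK1.1+ cells, beside 0.01 and -0.17 for all genes. In NK1.1+ cells its median thus lay near that of all genes, unlike the -0.62 of the set of 42. Ifitm3, which encodes a membrane protein that blocks virus entry, read 16.0 in control, 55.0 in NK1.1- KO and 603 in NK1.1+ KO cells. Cxcl9, a chemokine induced by interferon γ, read 191 in NK1.1+ KO cells and at most 10.7 on the other arrays. These 2 were high on the array on which the monocyte and macrophage genes were high, and the part of such cells in them was not tested. Ifitm2 read 8.41, 36.9 and 119.5 from control to NK1.1+ KO, and Cxcl10 read 15.8, 88.2 and 69.7. Ddx60, a helicase gene linked to RIG-I-like receptors, read 175, 71.6 and 16.4, 10.6-fold below control in NK1.1+ cells.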

How the data were processed

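RNA of 3 sorted cell samples, 1 per group, was read on 1 array each. The authors deposited intensity values made, per the submitters' processing notes, with GCRMA 1.1.3, which removes background by probe sequence and summarises each probe set. With which options it was run is unknown here. Values run from 2.60 to 55468 on a linear scale, and log2 was taken here. Of the probe sets, 64 are controls and were left out, 34945 have exactly 1 symbol in the platform annotation, 932 several and 9160 none. Entrez identifiers of 34741 matched the RefSeq gene table, which changed 0 symbols.

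The level of measurement is the 95th percentile of 142 probe sets for genes of smell and taste receptors, hair keratin partners and lens proteins. With 1 array per group no test was made, and 1 array a group limits the precision. The members and lists were chosen with earlier results of these data known. Values on all arrays are given for members called in any comparison, for at least the 2 with the highest mean in each role, for the 2 to 4 genes of each pathway list with the largest differences from control, and for Ifng, Ifnar1, Ifngr1 and Tgfbr2. Alternatives were another level, an offset, the mean of probe sets, leaving out probe sets with a cross-hybridisation suffix, 3 rescalings and other fold thresholds, and, chosen after seeing the data, the rescaling to hybridisation controls with each gene's probe set kept. The calling steps were tested on simulated data. Python 3.11.15, pandas 2.3.3, numpy 2.4.6 and matplotlib 3.10.9 were used.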

Additional observations from a re-analysis of the deposited data

Results flagged for a closer look

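For 2 genes the KO fractions lay on opposite sides of the shared control array, each by 2-fold or more. How many of all genes do so was not counted. Of all genes, 8.04% were called higher in NK1.1- cells and 22.8% lower in NK1.1+ cells. Oas3 had a log2 difference from control of 1.06 in NK1.1- cells and of -2.02 in NK1.1+ cells, the latter a lower bound in size. Both Oas3 calls were lost with an offset of 32. With the level at the 75th percentile the NK1.1- call was lost too, and the NK1.1+ comparison had no value. Irf4, a factor induced by T cell receptor signals and one of the pathway genes outside the 42, had 1.07 and -1.28, with values of 97.6 in control, 205 in NK1.1- KO and 40.1 in NK1.1+ KO cells. With 1 array per group the difference between the fractions was not tested for either gene.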

How the results depend on the processing

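With 1 array per group no error could be set on any value, and no array could be left out. No paired analysis was possible because each group has 1 array. Of the single-gene values under the alternatives, 684 stayed within the spread between probe sets of a gene, 165 moved and 7 reversed. Part of the 684 was fixed in advance, so their number does not measure robustness. The mean of probe sets cannot change the 23 genes with a single probe set. Scaling to the hybridisation controls, counted with and without probe sets kept, has nearly equal factors for NK1.1- KO (1.499) and control (1.503). The reversed ones came with arrays scaled to the hybridisation controls, which lowers every value of the NK1.1+ KO array: Mx1 -0.037, Eif2ak2 -1.37 and Gbp3 -0.17 against control, and Eif2ak2 -1.30 against NK1.1- KO. For Eif2ak2 alone among the 40 genes, this scaling also changed which probe set was brightest. With the probe sets kept, an alternative chosen after seeing the data, Mx1 and Gbp3 were as before, and Eif2ak2 was -0.039 against control and, no longer reversed, 0.86 against NK1.1- KO. Counts follow in the order higher and lower.

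For NK1.1- KO against control (3 and 1 of the interferon-stimulated genes, 811 and 559 of all genes), the higher count was 1 with an offset of 32, 1 without suffixed probe sets and 1 at 3-fold, and the lower count was 0 with the level at the 75th percentile, 0 with the offset and 7 at 1.5-fold. All genes gave 494 and 312 with the higher level, 473 and 238 with the offset, 524 and 349 with the mean of probe sets, 1618 and 1492 at 1.5-fold and 380 and 153 at 3-fold.

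For NK1.1+ KO against control (3 and 14, all genes 1049 and 2432), the higher count was 1 with the offset, 1 without suffixed probe sets, 8 with a common median, 0 with hybridisation controls (both ways), 8 at 1.5-fold and 0 at 3-fold. The lower count was 9 with the higher level, 9 with a common median, 30 with hybridisation controls and 29 with probe sets kept as well (median -1.88 in both) and 9 at 3-fold. All genes gave 562 and 1496, 585 and 1485, 569 and 1787 in the first 3 settings, 1826 and 1498 with a common median, 313 and 6853 with hybridisation controls (318 and 6818 with probe sets kept), 1815 and 3705 at 1.5-fold and 560 and 1214 at 3-fold. The genes' median less that of all genes was -0.45, and -0.30, -0.43 and -0.51 after quantile, median and hybridisation scaling, -0.14 with the higher level and -0.21 with the mean of probe sets. The median of all genes was -0.17, and -0.06, 0.19 and -1.37 after these scalings.

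For NK1.1+ KO against NK1.1- KO (1 and 11, all genes 696 and 2264), the higher count was 0 with the higher level, the offset, the mean of probe sets and hybridisation controls (both ways), and 2 with a common median and at 1.5-fold. The lower count was 7 with the higher level, the offset, the mean of probe sets and at 3-fold, 19 at 1.5-fold and 35 with hybridisation controls and 34 with probe sets kept as well (median -1.85 in both). All genes gave 326 and 1305, 361 and 1202, 337 and 1540 in the first 3 settings, 1467 and 1093 with a common median, 200 and 7283 with hybridisation controls (207 and 7244 with probe sets kept), 1365 and 3782 at 1.5-fold and 373 and 919 at 3-fold. Beyond what each setting does by construction, the cause was not tested.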
